A study of Mus musculus with 32 samples.

Results

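Embryonic stem cells kept in a medium with the liver X receptor agonist T0901317 (called NrESC in the labels) were sequenced at passages 0 to 14, and their passage 8 libraries are set here against those of the neighbouring passages 6 and 10. The comparison holds 2 NrESC libraries of passage 8 and 4 NrESC libraries of passages 6 and 10, which together are 6 of the 32 libraries of the series. Passage 8 was selected on the expression values themselves, because its NrESC libraries stand apart from the rest. Its difference from passages 6 and 10 is therefore a description and carries no test.

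All 32 libraries came from wild-type mouse E14 embryonic stem cells, an established line, and held polyA-selected RNA of whole cultures. Every culture grew on gelatin in serum with LIF and 2 inhibitors, 3 µM CHIR99021 (a GSK3 inhibitor) and 1 µM PD0325901 (a MEK inhibitor). The NrESC medium also held 10 µM T0901317, and the untreated arm, called ESC, lacked the agonist. NrESC and ESC were each sampled in duplicate at passages 0, 2, 4, 6, 8, 10, 12 and 14. Whether duplicates came from separate cultures is not stated in the labels, so p-values measure only the spread between these libraries, which may be technical. They give no batch or date, and handling that a passage shared cannot be told apart from the passage.

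Liver X receptors are nuclear receptors that oxysterols switch on, and with their partner RXR they raise genes of cholesterol export and of fatty acid synthesis. Mouse embryonic stem cells in LIF and these inhibitors keep a naive pluripotent state, held by Pou5f1, Sox2, Nanog, Esrrb, the Klf factors and their partners. Cells short of amino acids or with misfolded protein in the endoplasmic reticulum activate the integrated stress response, in which the factor ATF4 raises genes such as Ddit3, whose product is called CHOP.

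The libraries held 24989651 to 50463483 estimated counts, and those of NrESC passages 6, 8 and 10 held 30561411 to 39977652. Of 24890 genes, 15036 passed the filter on low counts. In a principal component analysis both NrESC passage 8 libraries had higher values on both leading components than each of the other 30 libraries. On component 1, with 34.1% of the variance, they lay at 53.02 and 53.4, against 11.9 to 13.7 for NrESC passages 6 and 10. On component 2, with 17.2%, they lay at 43.4 and 45.1, against -8.65 to 7.33. ESC passage 8 did not stand outside its arm on component 2: it lay at 17.1 and 17.7, ESC passage 14 reached 20.5, and ESC passages 6 and 10 lay at -5.87 to -2.98. The 2 NrESC passage 8 libraries agreed closely with each other, with a chi-square per degree of freedom of 1.92 in a range of 1.71 to 3.30 over all 16 groups. Pou5f1, which marks embryonic stem cells, was at 1454 and 1431 CPM in the passage 8 libraries, where CPM is a count relative to the library total after TMM scaling.

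**Figure D1:**
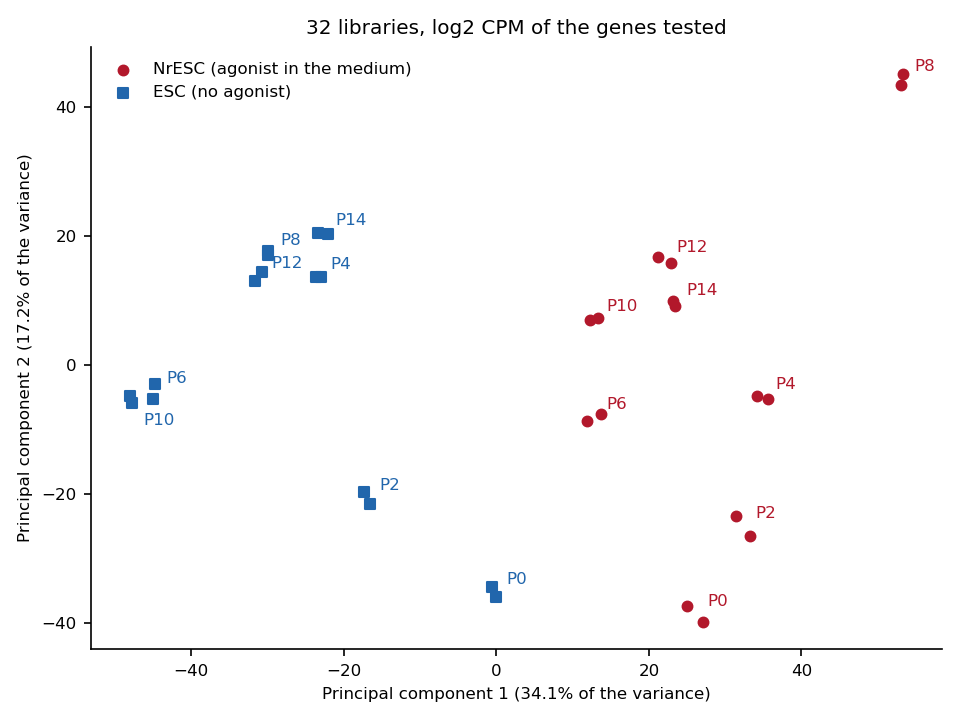
Principal components 1 and 2 (share of the variance in the axis labels) of log2 CPM in 32 libraries, with NrESC as circles, ESC as squares and the passage beside each pair of libraries. The 2 NrESC passage 8 libraries lie at 53.02 and 53.4 on component 1 and at 43.4 and 45.1 on component 2, outside every other library.

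A gene is called apart here where passage 8 differed from passages 6 and 10 by at least 1.5-fold and both passage 8 libraries lay outside the range of the 4 others. By this rule 2205 genes were higher in NrESC passage 8 (14.7% of the genes tested) and 1479 were lower (9.84%). At a fold of at least 2, the counts were 943 higher (6.27%) and 583 lower (3.88%). The log2 fold changes had an SD over genes of 0.708 and a median of 0.03. Of the genes that were higher, 1751 (79.4%) lay outside the range of all 14 other NrESC libraries and 1472 (66.8%) outside that of all 30 other libraries. Of the genes that were lower, these counts were 1084 (73.3%) and 1008 (68.2%). The rule had already placed all of them outside the 4 libraries of passages 6 and 10, so these shares are partly set by it. Passage 8 was the highest of the 8 NrESC passages for 32.5% of genes and the lowest for 30.3%. Each of the other passages was the highest for 5.35% to 19.99%. Klf2 at -0.59 and Srebf1 at 0.59 were just inside the 1.5-fold threshold on the log2 scale, and Nanog at -0.55 and Esrrb at -0.56 were just outside it.

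Among apart genes whose average log2 CPM reached 2, Ddit3, the stress-induced factor CHOP, had the highest log2 fold change. Ddit3 was at 90.7 and 93.3 CPM in NrESC passage 8, against 9.09 and 9.13 CPM in NrESC passage 6 and 11.4 and 10.5 CPM in NrESC passage 10. Its log2 fold change was 3.20 ± 0.05 (SE of the model, here and below), and the next highest of the 16 group means was 22.1 CPM, in NrESC passage 4. Gadd45b, a stress-inducible gene of the growth arrest and DNA damage family, was at 90.9 and 86.4 CPM in passage 8. It was at 18.6 and 20.1 CPM in passage 6 and at 20.1 and 22.9 CPM in passage 10, a log2 fold change of 2.12 ± 0.05. Txnip, which binds thioredoxin and restrains glucose uptake, was at 589 and 594 CPM, against 184 and 187 CPM in passage 6 and 218 and 216 CPM in passage 10. Its log2 fold change was 1.56 ± 0.02. For these genes the groups did not overlap, and the passages on either side were close to each other beside the distance to passage 8.

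Of 24 tested genes listed as ATF4 and CHOP targets, 14 were apart and higher and 1 was apart and lower, and the median log2 fold change was 0.75, against 0.03 over all genes. Atf4 itself was at 502 and 495 CPM in passage 8, against 426, 439, 424 and 426 CPM in passages 6 and 10, a log2 fold change of 0.22 that did not reach 1.5-fold. Trib3, a pseudokinase that CHOP and ATF4 induce, was at 71.0 and 71.1 CPM, against 38.2 to 39.0 CPM in passage 6 and 38.1 to 38.8 CPM in passage 10. Gdf15, a stress-induced secreted factor, had a log2 fold change of 1.44 ± 0.07 and Nupr1, a stress-induced nuclear protein, one of 1.13 ± 0.04. The list did not move as one, as a few members chosen after their values were seen show. Asns, the asparagine synthetase gene and a standard ATF4 target, had a log2 fold change of 0.02, and Ppp1r15a, the GADD34 subunit that reverses the response, one of 0.01. Sesn2, a stress-induced regulator of growth signalling, had -0.39, and Slc38a2, an amino acid transporter, was apart and lower at -0.96. Of 13 genes of serine and one-carbon synthesis 5 were higher and 0 lower, with Pycr1, an enzyme of proline synthesis, at 0.85. None of 20 cytosolic aminoacyl-tRNA synthetases was apart, and their median was 0.22. Of 19 chaperones of the endoplasmic reticulum 3 were higher (15.8%, a share near the 14.7% of all genes) and 0 lower, led by Dnajc3 at 0.91.

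Promoter sequence is shown for 5 stress genes that were higher at passage 8, picked because their windows hold a match, which is in capitals. The windows run from 250 bases before to 50 bases after the gene's start, on the gene's strand, from RefSeq on build GRCm38.p6. In Ddit3 (chr10:127290543-127290842, plus strand) the capitals mark CCAAT, read on the other strand. In Trib3 (chr2:152344011-152344310, minus strand) and Chac1 (chr2:119350992-119351291, plus strand) they mark TGATGNAA, the core of the C/EBP-ATF response element, read on the other strand. In Hspa1a (chr17:34972107-34972406, minus strand) and Hspa1b (chr17:34959189-34959488, minus strand) they mark GAANNTTC, a unit of the heat shock element.
Ddit3: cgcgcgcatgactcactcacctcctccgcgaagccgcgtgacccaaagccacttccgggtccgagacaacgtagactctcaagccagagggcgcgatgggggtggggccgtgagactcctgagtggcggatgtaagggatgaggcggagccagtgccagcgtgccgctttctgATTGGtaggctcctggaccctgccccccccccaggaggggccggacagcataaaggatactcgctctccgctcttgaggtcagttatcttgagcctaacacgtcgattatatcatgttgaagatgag
Trib3: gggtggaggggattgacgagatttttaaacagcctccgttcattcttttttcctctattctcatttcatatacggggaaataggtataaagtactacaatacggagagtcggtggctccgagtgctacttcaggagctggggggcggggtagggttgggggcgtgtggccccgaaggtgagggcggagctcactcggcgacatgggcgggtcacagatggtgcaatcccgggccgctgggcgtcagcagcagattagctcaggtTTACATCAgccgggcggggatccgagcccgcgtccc
Chac1: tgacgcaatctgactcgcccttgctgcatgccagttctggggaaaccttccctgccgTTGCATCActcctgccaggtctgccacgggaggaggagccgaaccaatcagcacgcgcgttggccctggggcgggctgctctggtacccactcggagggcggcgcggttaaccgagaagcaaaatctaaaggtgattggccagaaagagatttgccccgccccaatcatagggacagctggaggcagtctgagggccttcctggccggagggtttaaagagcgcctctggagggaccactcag
Hspa1a: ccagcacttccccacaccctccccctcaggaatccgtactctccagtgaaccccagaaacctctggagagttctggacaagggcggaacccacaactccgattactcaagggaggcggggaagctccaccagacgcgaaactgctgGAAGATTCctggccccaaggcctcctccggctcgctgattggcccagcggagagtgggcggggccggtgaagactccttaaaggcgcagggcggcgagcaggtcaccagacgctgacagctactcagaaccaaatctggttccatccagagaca
Hspa1b: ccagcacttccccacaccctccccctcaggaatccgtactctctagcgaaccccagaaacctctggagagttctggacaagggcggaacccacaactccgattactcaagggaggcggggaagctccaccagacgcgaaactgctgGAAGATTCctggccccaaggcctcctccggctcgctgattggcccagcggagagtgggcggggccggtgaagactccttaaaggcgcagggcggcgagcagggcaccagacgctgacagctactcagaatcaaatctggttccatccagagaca

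Of the genes tested, 11916 had such a window, and some had several, 15061 windows in all. TGATGNAA, on either strand, was in 3.52% of 2189 windows of genes higher at passage 8, in 2.05% of 1417 windows of genes lower at passage 8 and in 2.29% of all windows. GAANNTTC was in 5.39%, 6.70% and 5.75% of these windows in the same order, and CCAAT, which also opens the longer endoplasmic reticulum stress element, in 37.4%, 36.8% and 37.8%. That longer element was in 6, 2 and 22 windows, CACGTG in 9.50%, 9.95% and 9.78%, and a serum response element in 0, 0 and 3 windows. Matches were not limited to genes that were higher: Tubb3 and Ppp1r10, both lower, held TGATGNAA in a window, and Ppp1r10 also GAANNTTC, while the windows of Ddit3 and Gdf15 held no TGATGNAA. A match is a run of letters and not a measured binding site. Chac1, which breaks down glutathione and was picked for its window after its values were seen, averaged 33.6 ± 3.07 CPM in passage 8. It averaged 20.3 ± 1.22 CPM in passage 6 and 20.01 ± 1.58 CPM in passage 10 (SD, n = 2 each).

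The 12 highest genes of moderate level also held genes outside the stress lists. Pdpn, a surface mucin, was at 16.3 and 15.8 CPM in passage 8, against 3.44 to 4.34 CPM, and Prnp, the prion protein gene, at 12.5 and 12.5 CPM, against 3.27 to 4.22 CPM. Rin1, an effector of Ras, was at 16.7 and 18.4 CPM, against 4.24 to 4.84 CPM. B4galnt2, a glycosyltransferase, was at 15.5 and 15.6 CPM, against 3.05 to 5.17 CPM. For each of them the lower passage 8 library lay well above the highest library of the flanking passages.

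Heat shock genes split. Hspa1a and Hspa1b encode the inducible HSP70 and are near-identical copies, so that their counts cannot be assigned with certainty to one or the other. Hspa1a was at 35.1 and 33.8 CPM in NrESC passage 8, against 2.32, 2.14, 2.21 and 2.38 CPM in passages 6 and 10, a log2 fold change of 3.93 ± 0.09. Hspa1b was at 38.9 and 39.3 CPM, against 8.34 to 9.52 CPM, a log2 fold change of 2.10 ± 0.06. Hspa8, the constitutive partner chaperone, was lower, at 1440.4 and 1406 CPM in passage 8, against 3404 and 3319 CPM in passage 6 and 2877 and 2948 CPM in passage 10. Over the 15 heat shock genes tested, 3 were higher and 5 lower, with a median of -0.32. Of 21 p53 targets 6 were higher and 1 lower, with a median of 0.19. Cdkn1a, the cell cycle inhibitor p21, was at 289.9 and 294 CPM, against 176 to 188 CPM. Pmaip1, the pro-apoptotic protein NOXA, already differed between the flanking passages, at 30.7 and 32.6 CPM in passage 8, 23.0 and 22.4 CPM in passage 10 and 12.8 and 13.0 CPM in passage 6.

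**Figure D2:**
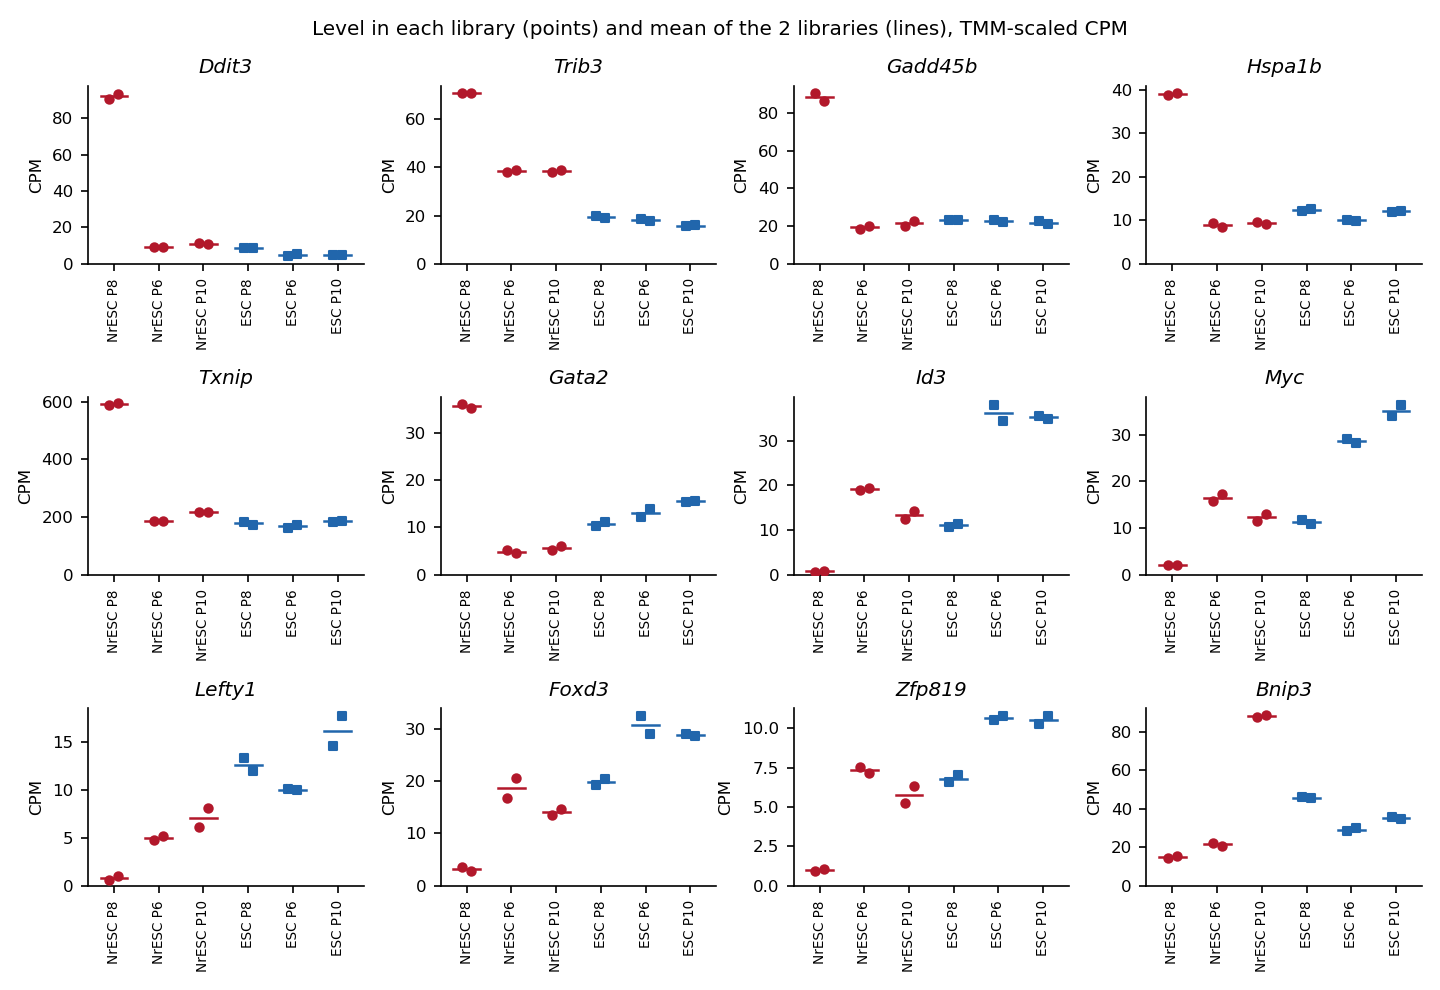
TMM-scaled CPM of 12 genes in each library of passages 8, 6 and 10 (points) with the mean of the 2 libraries (lines), NrESC in circles and ESC in squares. Ddit3 is at 90.7 and 93.3 CPM in NrESC passage 8 and below 12 CPM elsewhere, while Id3, Myc and Foxd3 are lowest in NrESC passage 8 and in ESC passage 8 lie below both flanking ESC passages.

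Liver X receptor targets, the genes that the agonist drives, were mostly higher at passage 8. Of 21 tested targets 11 were apart and higher and 1 was lower, and the median log2 fold change was 0.59. Abcg1, a cholesterol exporter, was at 202 and 208 CPM in passage 8, against 99.4 and 102 CPM in passage 6 and 109.9 and 107 CPM in passage 10. Scd1, the desaturase that makes monounsaturated fatty acids, was at 1527 and 1533 CPM, against 790.2 to 848 CPM. Srebf1, the factor that drives fatty acid synthesis, was at 383 and 388 CPM, against 238 to 269 CPM. Abca1, the main cholesterol exporter of this family, was not apart: it was at 387 and 400.1 CPM in passage 8, against 421 to 449.6 CPM, a log2 fold change of -0.14 ± 0.02. At passages 2, 4, 12 and 14, which the passage 8 contrast does not use, NrESC exceeded ESC for Abca1 by 3.24 on the log2 scale and for Abcg1 by 4.18. The adjusted p values were 1.89e-57 and 4.40e-52 (edgeR's quasi-likelihood test, Benjamini-Hochberg over all genes), and all 8 NrESC libraries lay above all 8 ESC libraries for both genes.

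Of 19 genes of sterol synthesis 3 were apart and higher (15.8%, against 14.7% of all genes) and 0 lower, with a median of 0.30 and Cyp51, the lanosterol demethylase, at 0.83. Insig1, which holds the sterol sensor SCAP in the endoplasmic reticulum, was at 192 and 193 CPM in passage 8, against 103 to 111 CPM. Of 18 genes of fatty acid synthesis 6 were higher and 0 lower, with a median of 0.35. Thrsp, a lipogenic protein, led at 1.69 ± 0.12, and Acss2, which makes acetyl-CoA from acetate, was at 1.14 ± 0.04. Pdk4, a kinase that restrains pyruvate dehydrogenase, led 16 genes of fatty acid oxidation at 1.48 ± 0.09. Of the 16, 2 were higher (12.5%, against 14.7% of all genes) and 0 lower.

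Pluripotency genes were lower in part. Of 26 core and naive genes 11 were apart and lower and 1, Dppa3 at a level near 1 CPM, was higher; the median was -0.55. Summed over the 26 genes the level was 8980 to 8995 CPM in passage 8, against 10561 to 11507 CPM in passages 6 and 10. Pou5f1 overlapped, at 1454 and 1431 CPM, against 1608 and 1652 CPM in passage 6 and 1409 and 1433 CPM in passage 10. Sox2 was at 208 and 209 CPM, against 367 to 378 CPM, a log2 fold change of -0.85 ± 0.02. Nanog was at 843 and 863 CPM, against 1314 and 1303 CPM in passage 6 and 1181 and 1191 CPM in passage 10. Klf4 was at 189 and 178 CPM, against 298 to 359.8 CPM. Dppa2 (-1.62) and Utf1 (-1.36), which encode chromatin-associated proteins of pluripotent cells, were among the lowest log2 fold changes of the list. In bulk RNA, fewer cells with a transcript and less of it per cell cannot be told apart.

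Among apart genes whose average log2 CPM reached 2, Id3 had the lowest log2 fold change. Id3, a target of BMP signalling that blocks differentiation factors, was at 0.678 and 0.893 CPM in passage 8, against 19.01 and 19.5 CPM in passage 6 and 12.5 and 14.3 CPM in passage 10. Its log2 fold change was -4.34 ± 0.13. Myc was at 2.06 and 1.97 CPM, against 15.8 and 17.2 CPM in passage 6 and 11.6 and 13.1 CPM in passage 10, a log2 fold change of -2.82 ± 0.10. Foxd3, a transcription factor of the pluripotent epiblast, was at 3.63 and 2.79 CPM, against 13.4 to 20.6 CPM. Nt5e, a surface enzyme that makes adenosine, was at 1.79 and 1.52 CPM, against 9.68 to 13.0 CPM. Also among the 12 lowest were 2 more abundant nuclear genes. Ppp1r10, a regulatory subunit of protein phosphatase 1, was at 29.8 and 28.2 CPM, against 128 to 155 CPM. Dido1, a chromatin protein known as death inducer-obliterator, was at 40.8 and 42.9 CPM, against 179 to 183 CPM.

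Most tested genes of the Nodal pathway were lower. Of 9 genes 6 were apart and lower and 0 higher, with a median of -0.68. The ligand Nodal was at 35.6 and 36.9 CPM in passage 8, against 96.4 to 103 CPM. Its feedback inhibitors were lower still: Lefty2 was at 24.1 and 24.1 CPM, against 92.7 to 103 CPM, and Lefty1 at 0.542 and 1.05 CPM, against 4.79 to 8.07 CPM. Smad7, which restrains signalling of the whole TGF-beta family, was at 57.8 and 58.1 CPM, against 129.8 to 164 CPM. Of 19 genes of ERK feedback and the immediate early response, 6 were lower (31.6%) and 4 higher (21.1%). Over all genes these shares were 9.84% and 14.7%. Etv5 (-1.27) and Spry4 (-1.47), which report FGF and ERK signalling, were lower, while Fos, an immediate early factor, was at 5.15 and 5.49 CPM, against 1.42 to 2.06 CPM. Of 10 Id and BMP genes 4 were lower and 2 higher, with a median of 0.13 and with Bmp4 at -0.93. Their log2 fold changes ran from -4.34 to 2.17, with 5 above 0 and 5 below.

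Each of the lineage lists held apart genes in both directions. Of 17 trophectoderm genes 8 were higher and 2 lower. Gata2, a factor of the trophoblast and of blood, was at 36.0 and 35.2 CPM in passage 8, against 4.55 to 5.98 CPM (log2 fold change 2.77 ± 0.08), and the placental homeobox gene Esx1 had 1.93. Hand1, a trophoblast factor named after its values were seen, had 2.90 from a lower level, averaging 1.27 ± 0.122 CPM in passage 8. Cdx2, which defines the lineage, averaged 0.415 ± 0.141 CPM in passage 8, against 0.594 ± 0.0923 CPM in passage 6 and 0.507 ± 0.147 CPM in passage 10 (SD, n = 2 each), and Eomes was apart and lower at -1.62. Of 16 primitive endoderm genes 7 were higher (43.8%, against 14.7% of all genes) and 1 lower. Their median was 0.54, with 13 above 0 and 3 below. Gata4 was at 14.4 and 14.4 CPM, against 6.47 to 8.55 CPM. Afp and Ttr, products of mature endoderm, were under 0.05 CPM in passage 8. Summed levels in passage 8, against passages 6 and 10, were 275 to 277 CPM against 248 to 258 CPM for trophectoderm genes and 1305 to 1310.4 CPM against 985 to 1094 CPM for primitive endoderm genes. They were 120.0 to 122 CPM against 275 to 283 CPM for mesoderm and definitive endoderm, 163 to 164 CPM against 171 to 177 CPM for neuroectoderm and 158 to 161 CPM against 199 to 207 CPM for fibroblast markers. The mesoderm and definitive endoderm list shares Lefty1 and Lefty2 with the Nodal list and Eomes with the trophectoderm list. Its lower sum thus counts in part the same genes again. Of its 11 tested genes 4 were apart and lower (36.4%, against 9.84% of all genes) and 2 higher (18.2%, against 14.7%), with a median of -0.18. By count, 3 of 8 tested neuroectoderm genes were higher and 1 lower, with a median of 0.35, and 3 of 6 tested fibroblast markers were higher and 1 lower, with a median of 0.60. The lower members were abundant: Tubb3, a neuronal tubulin, was at 36.1 and 34.8 CPM, against 64.4 to 82.3 CPM, and Vim, an intermediate filament protein, at 103 and 100.1 CPM, against 160.2 to 174 CPM. Thy1, a surface glycoprotein, was at 7.53 and 8.65 CPM, against 3.34 to 4.76 CPM. Of 11 fibroblast markers Col3a1, Postn, Lum, Dcn and S100a4 were under 0.05 CPM. Of 23 genes of the 2-cell-like state 2 were higher (8.70%) and 3 lower (13.0%), near the 14.7% and 9.84% of all genes.

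Several sets of chromatin genes held members that were lower. Of 14 genes of the DNA methylation machinery 5 were lower and 0 higher, with a median of -0.51. The demethylating enzymes Tet1 and Tet2 were at 377 and 380.3 CPM, against 712 to 748 CPM, and at 177 and 174 CPM, against 356 to 369 CPM. Dnmt3l, the cofactor of the de novo methyltransferases, was at 61.0 and 59.9 CPM, against 94.6 to 128 CPM. Of 24 germline genes known to be held down by promoter methylation 8 were higher and 0 lower, with a median of 0.44 and with Mael at 0.87, Taf7l at 0.86 and Piwil2 at 0.82. Of 23 trithorax and Polycomb regulators 3 were lower (13.0%, against 9.84% of all genes) and 0 higher, led by the histone methyltransferase Setd1b at -1.22. The broadest set was that of the zinc finger genes, many of which encode repressors of retrotransposons: of 343 tested, 110 were lower and 12 higher, with a median of -0.29. Zfp819 was at 0.949 and 1.02 CPM in passage 8, against 5.22 to 7.53 CPM. Zfp709 was at 1.30 and 1.498 CPM, against 5.31 to 5.68 CPM. Imprinted genes were mixed, with 6 of 27 higher (22.2%, against 14.7% of all genes) and 4 lower (14.8%, against 9.84%).

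Among extracellular matrix and lysosomal genes more were higher than lower. Of 48 collagens, laminins and cross-linking enzymes 15 were higher and 1 lower, with a median of 0.46; the basement membrane chain Col4a2 was at 36.4 and 36.2 CPM, against 15.1 to 19.3 CPM. Of 25 autophagy and lysosome genes 7 were higher and 0 lower, and the lysosomal sialidase Neu1 was at 44.4 and 43.2 CPM, against 17.7 to 19.1 CPM. Of 45 replication-dependent histone genes, whose transcripts mostly lack the polyA tail that was selected for, 12 were higher and 1 lower, with a median of 0.32 that was -0.25 against passages 4 and 12. The share of all counts in histone genes was 0.00469% to 0.00481% in passage 8, against 0.00275% to 0.00408%. Few genes of housekeeping complexes were apart. Of 83 cytosolic ribosomal protein genes 1 was apart, their median was 0.09, and their share of counts was 7.96% to 8.01% in passage 8, against 6.99% to 7.51%. None of 37 proteasome genes was apart, and of 30 DNA replication and 24 mitosis genes 1 each was, with medians of -0.22 and -0.32, against 0.03 over all genes.

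**Figure D3:**
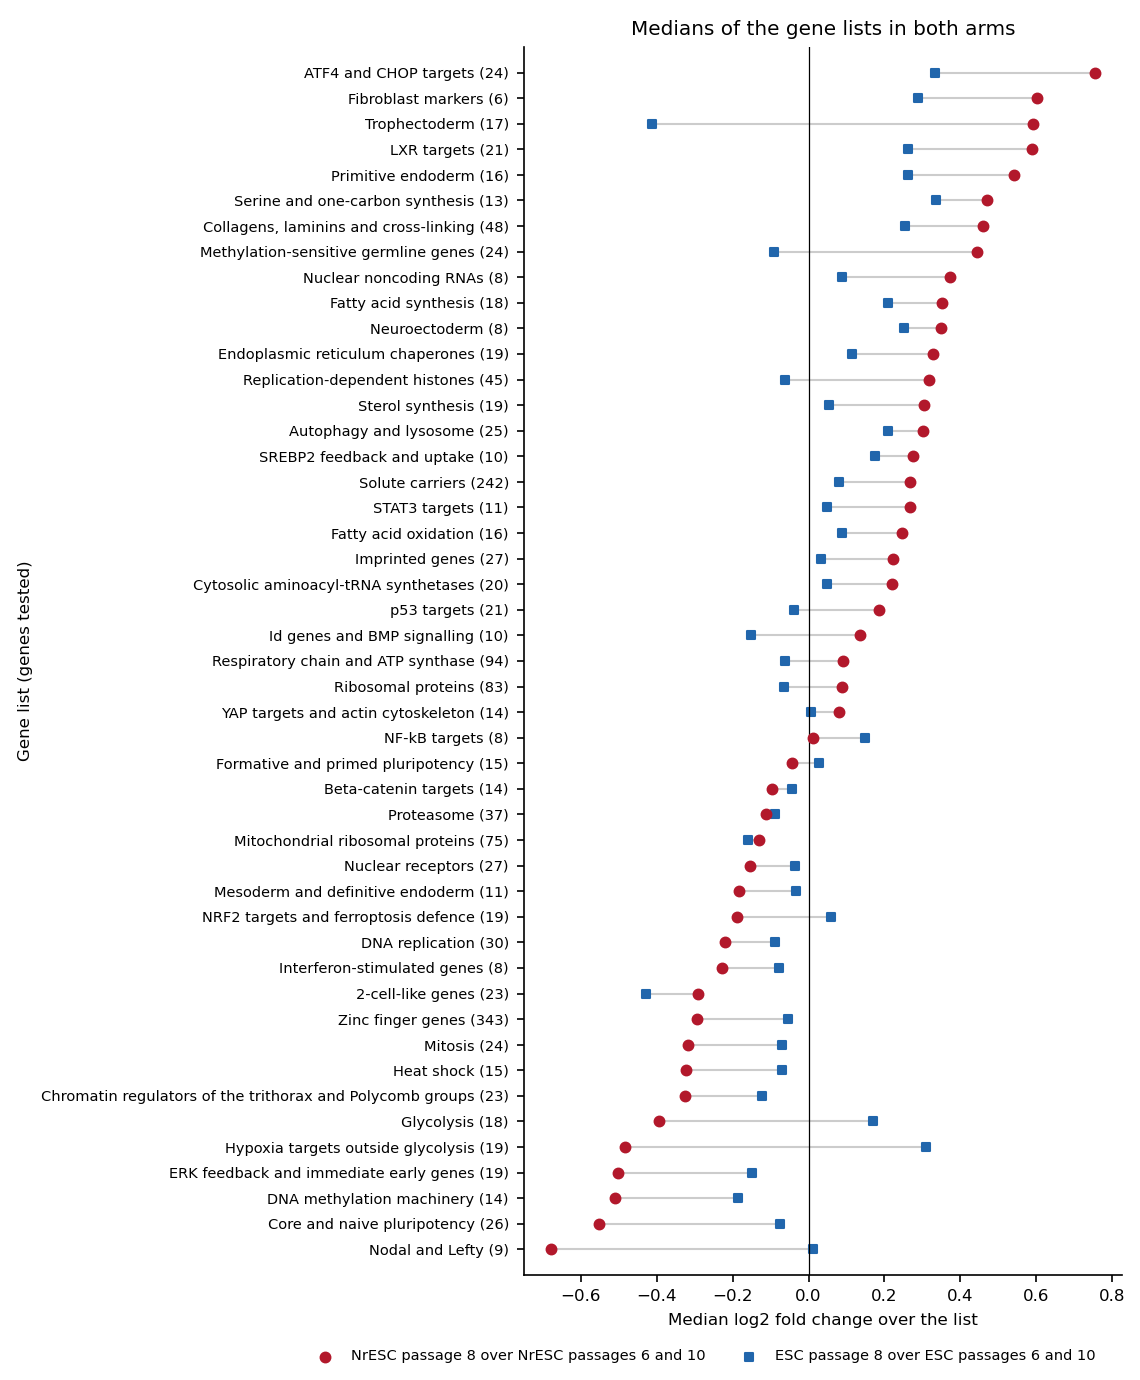
Median log2 fold change of 47 gene lists (genes tested in parentheses) for NrESC passage 8 over NrESC passages 6 and 10 (circles) and for ESC passage 8 over ESC passages 6 and 10 (squares). In NrESC the ATF4 and CHOP targets are highest at 0.75 and the Nodal and Lefty genes lowest at -0.68, and the trophectoderm, glycolysis and hypoxia lists have medians of opposite sign in the 2 arms.

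Glycolysis and hypoxia genes need the flanking passages apart, since these differed from each other. Bnip3, a hypoxia-induced mitophagy receptor, was at 14.5 and 15.5 CPM in NrESC passage 8, 22.2 and 20.9 CPM in passage 6 and 87.6 and 88.8 CPM in passage 10. Slc2a1, the glucose transporter GLUT1, was at 205 and 203 CPM in passage 8, 320.1 and 327 CPM in passage 6 and 594 and 599 CPM in passage 10. Ldha, lactate dehydrogenase, was at 731 and 724 CPM in passage 8, 1236 and 1228 CPM in passage 6 and 1591 and 1576 CPM in passage 10. For these genes passage 8 was the lowest of the 3 passages. Of 18 glycolysis genes 5 were apart and lower and 1 higher, with a median of -0.39, and of 19 hypoxia targets outside glycolysis 5 were lower and 2 higher, with a median of -0.48. Against passage 6 alone the hypoxia median was 0.23, and against passage 10 alone it was -0.80.

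NrESC passage 10 over NrESC passage 6, which does not use passage 8, measures how far those passages differ. With edgeR's quasi-likelihood test 1337 genes rose (8.89%) and 1562 fell (10.4%) at an adjusted p below 0.05, of which 227 (1.51%) and 45 (0.299%) changed by at least 1.5-fold. The SD of the log2 fold changes was 0.394, against 0.708 for passage 8 over both. Of the 18 glycolysis genes 17 rose at passage 10, and of the 19 hypoxia targets 15 rose. Ndufa4l2, a hypoxia-induced mitochondrial protein, led at 2.56 (edgeR adjusted p 2.31e-25), with 25.9 and 28.5 CPM in passage 10 and 4.43 and 4.78 CPM in passage 6. Without 1 library they were 852 genes higher and 1068 lower (without passage 6 replicate 1), 873 and 1025 (passage 6 replicate 2), 859 and 992 (passage 10 replicate 1) and 861 and 972 (passage 10 replicate 2).

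The untreated arm answers whether cultures without the agonist also differed at passage 8. They did, mostly in the same direction and by less. In ESC passage 8 over ESC passages 6 and 10, 3362 genes rose (22.4%) and 3347 fell (22.3%) with edgeR's quasi-likelihood test, of which 717 (4.77%) and 210 (1.40%) changed by at least 1.5-fold. By the rule used for NrESC, 846 (5.63%) and 317 (2.11%) were apart. The SD of the log2 fold changes was 0.708 in NrESC and 0.410 in ESC. Among the 2205 genes higher in NrESC passage 8, 1087 (49.3%) rose in ESC and 32 (1.45%) fell, with a median of 0.39. Among the 1479 genes lower in NrESC passage 8, 695 (47.0%) fell in ESC and 66 (4.46%) rose, with a median of -0.20. Over 15036 genes the log2 fold changes of the 2 arms had a Pearson r of 0.503 and a Spearman rho of 0.547. The arms share no library, but genes are not independent replicates. The NrESC change was the more positive for 92.8% of the genes higher in NrESC and the more negative for 98.0% of the genes lower in NrESC; these genes were chosen for a large NrESC change.

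The ESC difference depended on the flanking passages. Passages 4 and 12 were taken as the other side after the data were seen. Then 1303 genes rose (8.67%) and 1210 fell (8.05%) in ESC passage 8 by the same test. Against passages 4 and 12 the genes higher and lower in NrESC passage 8 had NrESC medians of 0.69 and -0.72, and 1294 (58.7%) and 926 (62.6%) were also apart there. The genes higher in NrESC passage 8 had an ESC median of 0.09 against passages 4 and 12, with 13.0% called higher and 3.27% lower. The genes lower in NrESC passage 8 had one of -0.05, with 14.9% called lower and 2.57% higher. The NrESC values reuse the passage 8 libraries that chose these genes and are partly set by that choice. No ESC library entered the choice, so the medians of the arms are not like for like. The correlation of the arms over genes was then 0.190 (Pearson) and 0.253 (Spearman).

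**Figure D4:**
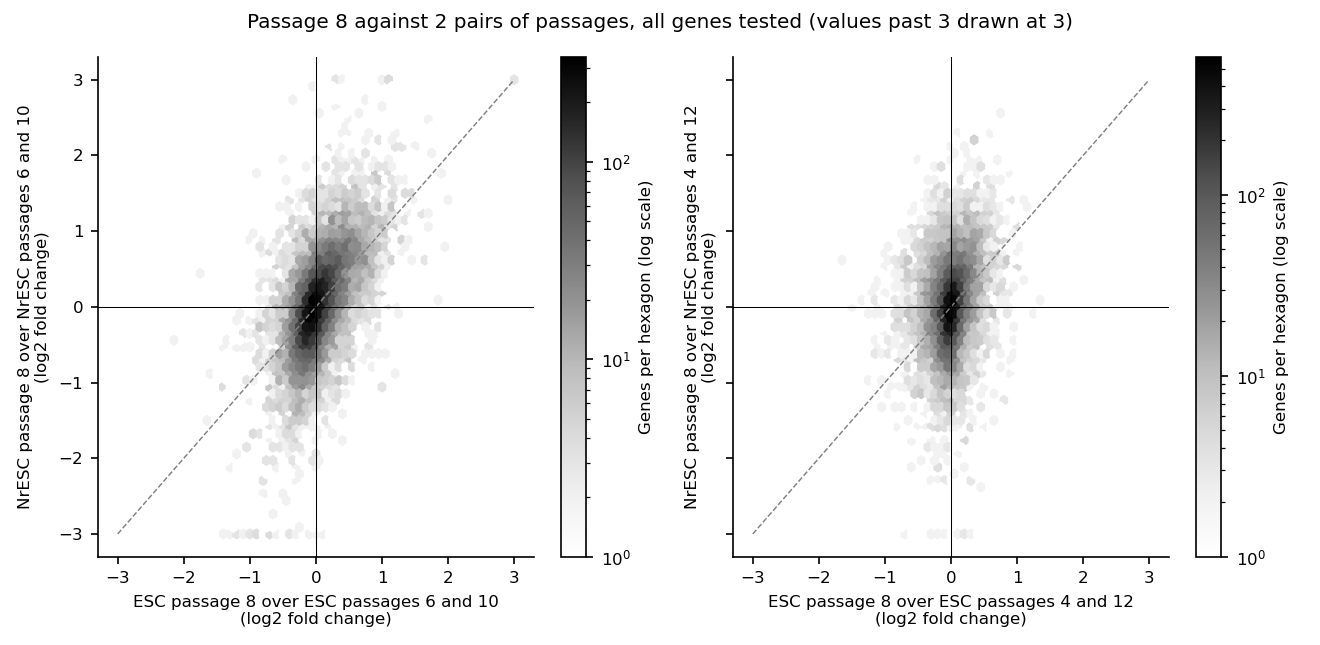
Log2 fold change of passage 8 in NrESC (vertical axis) against that in ESC (horizontal axis) over 15036 genes, with passages 6 and 10 (left) or passages 4 and 12 (right) as the other side; the dashed line marks equal change and shading the number of genes on a log scale. The Pearson r is 0.503 on the left and 0.190 on the right, and the spread is larger along the NrESC axis in both.

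Genes that moved in both arms included Id3 and Myc. In ESC passage 8 Id3 was at 10.7 and 11.3 CPM, against 37.9, 34.5, 35.6 and 35.0 CPM in ESC passages 6 and 10, a log2 fold change of -1.69 ± 0.07 (edgeR adjusted p 9.98e-23). Myc was at 11.7 and 10.9 CPM, against 28.2 to 36.4 CPM, a log2 fold change of -1.49 ± 0.06 (edgeR adjusted p 1.04e-21). Both genes were also low at ESC passage 4, and against ESC passages 4 and 12 their log2 fold changes were -0.35 each. Ddit3 was at 8.50 and 8.41 CPM in ESC passage 8, against 4.28 to 5.10 CPM, a log2 fold change of 0.82 (edgeR adjusted p 8.78e-11). Against passages 4 and 12 it was 2.16 in NrESC and -0.10 in ESC (edgeR adjusted p 0.443 in ESC). S100a13, a calcium-binding protein, was among the genes that rose most in ESC, at 22.2 and 22.7 CPM against 5.08 to 9.32 CPM, and had 1.39 in NrESC and 1.65 in ESC. Spry4 had -1.47 in NrESC and -1.67 in ESC (edgeR adjusted p 1.53e-22 in ESC). Bmp4 had -0.93 in NrESC and -0.92 in ESC (edgeR adjusted p 7.42e-15 in ESC). Against passages 4 and 12, Spry4 had -0.69 in NrESC and -0.52 in ESC, and Bmp4 had -0.59 and -0.36.

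Several of the leading genes of NrESC did not pass the test in ESC. Gadd45b had an ESC log2 fold change of 0.07 ± 0.06 (edgeR adjusted p 0.344), at 23.1 and 23.4 CPM in ESC passage 8 against 20.8 to 23.3 CPM. Txnip had 0.01 ± 0.03 (edgeR adjusted p 0.724), at 182 and 173 CPM against 163 to 185 CPM. Lefty1 had -0.01 ± 0.09, Lefty2 0.03 ± 0.03 and Nodal -0.03 ± 0.03 (edgeR adjusted p 0.921, 0.419 and 0.436). Sox2 had -0.03 ± 0.02 (edgeR adjusted p 0.338) and Hspa1a 0.03 ± 0.13 (edgeR adjusted p 0.864). Hspa1b, the near-identical copy of Hspa1a, did pass, at 0.18 ± 0.07 (edgeR adjusted p 0.0358). The difference between the arms is untested for all of these genes, since the NrESC side was chosen for its size. The NrESC minus ESC difference was 2.06 on the log2 scale for Gadd45b, 1.55 for Txnip, -2.86 for Lefty1 and 3.89 for Hspa1a.

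By list, the ATF4 and CHOP targets rose in ESC in 16 of 24 genes and fell in 1, with a median of 0.33, and the liver X receptor targets rose in 14 of 21 and fell in 1, with 0.26. Against passages 4 and 12 these medians were 0.34 and 0.38 in NrESC, and -0.04 and 0.08 in ESC. Of the 26 core and naive pluripotency genes 5 rose and 14 fell in ESC, with a median of -0.08, and of the 343 zinc finger genes 40 rose and 84 fell, with -0.05. Over all genes 22.4% rose and 22.3% fell in ESC. The share of zinc finger genes that fell was near that of all genes. The arms had medians of opposite sign for trophectoderm genes, with 0.59 in NrESC and -0.41 in ESC, where 2 of 17 rose and 8 fell. They also did for glycolysis, with -0.39 in NrESC and 0.17 in ESC, where 14 of 18 rose and 0 fell, and for hypoxia targets, with -0.48 and 0.31. For glycolysis and hypoxia this turned with the other side: against passages 4 and 12 the ESC medians were -0.30 and -0.33, and 16 of 18 and 14 of 19 genes fell. For trophectoderm genes the ESC median against passages 4 and 12 was -0.04, where 2 of 17 rose and 3 fell, and the NrESC median was 0.45. Collagens, laminins and cross-linking enzymes rose in ESC in 18 of 48 genes and fell in 0, with a median of 0.25. Autophagy and lysosome genes rose in 18 of 25 and fell in 1, with 0.21. Against passages 4 and 12 these ESC medians were -0.02 and 0.09. Primitive endoderm genes rose in 7 of 16 and fell in 1. Their sum was 1319 to 1343 CPM in ESC passage 8, against 1061 to 1218 CPM in ESC passages 6 and 10. The germline genes had medians of 0.44 in NrESC and -0.09 in ESC, where 4 of 24 rose and 5 fell, neither share above that of all genes. Against passages 4 and 12 these medians were 0.18 and -0.14.

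**Figure D5:**
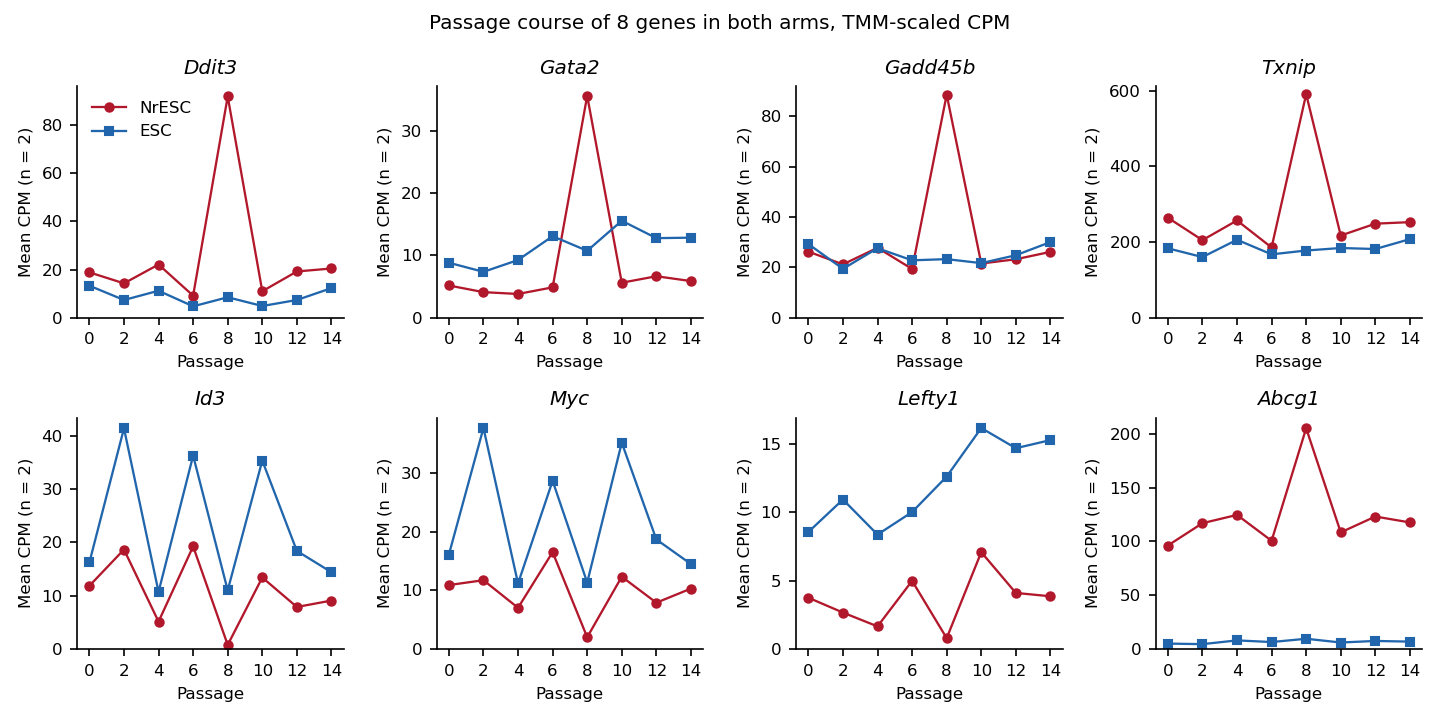
Mean TMM-scaled CPM (2 libraries per point) of 8 genes at passages 0 to 14 in NrESC (circles) and ESC (squares). Ddit3, Gata2, Gadd45b and Txnip stand out at NrESC passage 8 alone, while Id3 and Myc alternate between passages in both arms and are lowest at NrESC passage 8.

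The agonist's effect at passages 2, 4, 12 and 14, where 5202 genes were higher in NrESC than in ESC (34.6%) and 5208 lower (34.6%) with edgeR's quasi-likelihood test, 5.33% and 7.57% of genes by at least 1.5-fold, overlapped with the passage 8 difference in part. Of the genes higher at NrESC passage 8, 1069 (48.5%) were also higher in NrESC at those passages and 411 (18.6%) lower. Of the genes lower at NrESC passage 8, 917 (62.0%) were lower and 144 (9.74%) higher. Of the genes at least 2-fold higher at passage 8, 38.2% were higher and 19.6% lower at those passages. Of the genes at least 2-fold lower, 65.0% were lower and 5.66% higher. Over all genes the Pearson r was 0.289 and the Spearman rho 0.347. Gata2 was lower in NrESC than in ESC at the other passages, by -1.06 (edgeR adjusted p 6.48e-20), and yet higher at passage 8. Gadd45b had -0.04 there (edgeR adjusted p 0.258), and Ddit3 had 1.02 (edgeR adjusted p 1.39e-25). Among genes whose average log2 CPM reached 2, 58 had NrESC group means in one direction over the 7 other passages. Passage 8 lay between passages 6 and 10 in 6 of these 58 and within the range of the 7 passages in 31.

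The genes higher and the genes lower differed from each other in base composition and in level. Their median GC content, over GENCODE transcripts, was 53.9% for genes higher and 48.7% for genes lower at passage 8, against 50.3% for all genes tested. Over 5 equal classes of genes from low to high GC content, 5.99%, 9.75%, 12.7%, 19.3% and 25.7% were higher, and the median log2 fold change in NrESC was -0.09, -0.03, 0.02, 0.11 and 0.19. In ESC it was -0.06, -0.01, 0.02, 0.04 and 0.07. By length the share of genes higher ran only from 13.2% to 15.97%. The genes higher had a median level of 1.13 on the log2 CPM scale and the genes lower one of 3.04, against 4.20 for all genes. The filter on low counts needs only as many libraries as a group holds. A gene could thus pass through the 2 NrESC passage 8 libraries alone, and such a gene can only count as higher. How far this shaped these levels and the counts of 2205 higher and 1479 lower was not tested. Zinc finger genes had a median GC content of 44.5% and collagens and laminins one of 56.3%. The part of GC content in these differences was not tested.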

How the data were processed

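RNA-seq of 32 libraries was analysed, 2 for each of 16 combinations of arm and passage, grouped by GEO's labels. The authors deposited RSEM expected counts per gene, of which 0.837% were not whole and were rounded here, and TPM values, which the authors scaled to the same sum in each library. The submitters' processing notes list STAR, Cufflinks 2.2.1, HTSeq 0.12.4, RSEM, DESeq2, edgeR and the mm9 build; which tool made which step is not given in the sources used here. Libraries held 24989651 to 50463483 counts, and 15036 of 24890 genes passed edgeR's filterByExpr over the 16 groups.

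One edgeR 4.0.16 quasi-likelihood model (R 4.3.3, limma 3.58.1) with TMM scaling was fitted over all 32 libraries, with 16 residual degrees of freedom, and p-values were adjusted by Benjamini-Hochberg over all genes at 0.05. It gave log2 fold changes and their standard errors. NrESC passage 8 was chosen from these values, so its contrast carries no p-value. The tested contrasts were ESC passage 8 over ESC passages 6 and 10, NrESC passage 10 over NrESC passage 6, and NrESC over ESC at passages 2, 4, 12 and 14. The model was tested on simulated counts.

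The members and gene lists were chosen with earlier results of these data known. The named genes were the 12 highest and 12 lowest apart genes whose average log2 CPM reached 2, the 3 largest apart members of each list where it reached 1, the 4 highest and 4 lowest called genes of each of the first 2 tested contrasts, and 17 fixed genes, 147 in all. Placeholder symbols were passed over. Some named genes are not reported here. Genes outside this rule are said to be chosen after their values were seen, or come from a list count.

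Alternatives were DESeq2 1.42.0 (scaling and Wald test), no filter, the groups of a contrast alone, other flanking passages, the TPM table as log2(TPM + 0.1), a replicate term and leaving out each library. GC content and length came from GENCODE M21 transcripts, matched by symbol for 14926 genes, and promoter windows of 300 bases from RefSeq on GRCm38.p6, another build than the submitters' mm9, so no coordinate of the files was used. Replicate numbers do not pair the samples: correlations of replicate differences between groups ran from -0.0936 to 0.0950 over 120 pairs of groups.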

Additional observations from a re-analysis of the deposited data

Results flagged for a closer look

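Among 147 named genes, 135 were apart in NrESC passage 8, and 10 of these moved the other way in ESC, with every ESC passage 8 library beyond all 4 ESC libraries of passages 6 and 10. The difference between the arms was not tested. NrESC minus ESC, on the log2 scale, it was 3.18 for Gata2, 1.65 for Kcnq1ot1, 1.14 for Mael and 1.13 for Pnpla3, which were higher in NrESC passage 8. For the genes lower in NrESC passage 8 it was -0.89 for Srxn1, -1.75 for Slc16a3, -1.28 for Slc2a1, -2.05 for Bnip3, -0.79 for Notum and -2.48 for Ndufa4l2.

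Kcnq1ot1, the long noncoding RNA of an imprinted cluster, was at 49.9 and 50.01 CPM in NrESC passage 8, against 24.4 to 26.8 CPM in NrESC passages 6 and 10. In ESC passage 8 it was at 16.6 and 16.9 CPM, against 25.04 to 28.4 CPM in ESC passages 6 and 10. Pnpla3, a lipid droplet protein, was at 36.1 and 37.9 CPM in NrESC passage 8, against 17.9 to 21.0 CPM, and at 12.5 and 11.7 CPM in ESC passage 8, against 13.3 to 14.7 CPM. Slc16a3, the lactate exporter MCT4, was at 46.8 and 47.5 CPM in NrESC passage 8, against 85.5 to 205 CPM. In ESC passage 8 it was at 101 and 100.4 CPM, against 76.6 to 91.5 CPM. Against passages 4 and 12 the ESC log2 fold changes of Slc16a3, Slc2a1, Bnip3 and Ndufa4l2 were -0.76, -0.48, -0.77 and -1.15, the same direction as in NrESC. That of Srxn1 was -0.03 (edgeR adjusted p 0.639). That of Gata2 was -0.02 (edgeR adjusted p 0.933), that of Pnpla3 -0.18, that of Mael -0.30, that of Notum 0.10 and that of Kcnq1ot1 -0.63. Mael and Notum did not pass edgeR's quasi-likelihood test in ESC (adjusted p 0.1003 and 0.370). Over all genes, 61 of those higher and 82 of those lower in NrESC passage 8 showed such an opposite, non-overlapping ESC difference.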

How the results depend on the processing

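The counts of genes apart in NrESC passage 8, 2205 higher and 1479 lower, came to 943 and 583 at 2-fold. Against passages 4 and 12, 1444 were higher, and against the 7 other NrESC passages 938 were lower; the cause was not tested. They ran from 2253 to 2435 higher and from 1556 to 1708 lower when 1 library was left out. ESC passage 8 gave 1303 genes higher and 1210 lower against ESC passages 4 and 12, a comparison chosen after seeing the data, and Igfbp4 turned to -0.30 there. With 1 library left out, the ESC passage 8 counts ran from 2584 to 3196 higher and from 2260 to 3164 lower. Those of NrESC passage 10 over passage 6 ran from 852 to 873 and from 972 to 1068, and those of NrESC over ESC at the other passages from 5016 to 5221 and from 5010 to 5180. With a replicate block, though the numbers do not pair the samples, the counts were 2205 and 1481 for NrESC passage 8, 3338 and 3321 for ESC passage 8, 1320 and 1524 for passage 10 over 6, and 5183 and 5195 for NrESC over ESC. The DESeq2 Wald test called 2853 and 2949 genes in ESC passage 8 and 1068 and 1172 in passage 10 over 6. Against passages 4 and 12, the NrESC passage 8 log2 fold changes of 133 of 147 named genes and the medians of 36 of 47 lists moved by more than the spread between replicates. Against the 7 other passages 115 and 25 did, and against passage 6 alone or passage 10 alone 76 genes each. Pck2 had 0.82 against passages 6 and 10 and 0.23 against passages 4 and 12. The medians of 9 lists changed sign under at least 1 alternative: 2-cell-like, formative, hypoxia, Id and BMP, imprinted, histone and YAP lists under 1 each, mesoderm under 2 and NF-kB under 6. Groups of 2 libraries limit every SD, and genes near 1 CPM have the widest errors.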
